A study of Mus musculus with 8 samples.

Results

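Collecting duct principal cells of the mouse kidney were taken as all cells that the authors' table places in the class CD PC. They number 1295 of 77393 cells, or 1.67%, with 84 from obstructed and 1211 from Control kidneys. The material was whole kidney of C57BL/6 mice aged 7 weeks, read as single-cell 3′ libraries (10x Genomics Chromium). The 2 UUO samples carry the disease label unilateral ureteric obstruction, a surgical model in which ligation of a ureter stops urine leaving the kidney. The ligation text names the left ureter and killing on day 7. The 6 Control samples carry the disease label control. The ligation text is attached to every sample, so it does not tell how the Control animals were handled, and Control samples were told apart by title and disease label. The files used here give each cell's class, sample, RNA depth and position in an embedding and no gene-level counts. The class was therefore not checked against its markers Aqp2, the water channel of the apical membrane, and Hsd11b2, the enzyme that inactivates glucocorticoids in aldosterone-responsive cells.

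Principal cells line the collecting duct beside intercalated cells and set the final composition of urine. They take up sodium through the epithelial sodium channel under aldosterone, and water through aquaporins under vasopressin, while intercalated cells secrete acid or base. The connecting tubule upstream holds cells with much of the same transport machinery. Collecting ducts drain through the papilla towards the ureter, so an obstruction lies directly downstream of them.

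The libraries held 18393 and 12930 cells in UUO samples 1 and 2, against 2263 to 16168 in the Control samples. Controls 3 and 4 were pooled and counted as 1 sample, because their numbers of cells per class did not differ at the 0.05 level (chi-square p = 0.0509) while the other 14 pairs of Control samples did (p of at most 4.09e-41). This left n = 2 for UUO and n = 5 for Control, which can be regrouped in 21 ways, so that an exact p cannot go under 0.0476. Separate animals are not named in the labels, and the spread behind every p-value is that of these libraries and may be technical. Of the 1295 principal cells, 104 had a barcode also seen in another library. Across all cells, no 2 with the same barcode had the same UMIs and genes. Controls 3 and 4 lay lowest among the Control samples in every share given below, and values without them are given where they change a call. The libraries over 10000 cells were both UUO samples and Controls 5 and 6.

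Principal cells were a smaller share of the recovered cells in UUO kidneys. UUO sample 1 held 18 principal cells, or 0.0979% of its cells (0.0580 to 0.155), and UUO sample 2 held 66, or 0.510% (0.395 to 0.649; exact Clopper-Pearson 95% intervals, here and below for counting error only). Control samples 1 to 6 held 3.67% (3.08 to 4.33), 2.25% (1.91 to 2.65), 1.46% (1.01 to 2.04), 1.77% (1.38 to 2.23), 2.90% (2.65 to 3.17) and 2.65% (2.39 to 2.93). Both UUO samples lay below every Control sample, and their intervals did not meet those of any Control sample. The 2 UUO samples also stood apart from each other, sample 2 holding the higher share. A share counts recovered cells and says nothing of the number of principal cells in a kidney.

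The mean share was 0.304% ± 0.292 (SD, n = 2) in UUO kidneys. In Control kidneys it was 2.63% ± 0.748 (SD, n = 5), giving a UUO to Control ratio of 0.116. As log2 odds, the difference of UUO from Control was -3.52 (95% interval -5.18 to -1.85, limma adjusted p 0.000724 over 28 classes), the next to lowest of all classes after the connecting tubule at -3.75. Of the 28 classes, 28.6% were called lower in UUO and 21.4% higher. Those called lower included the intercalated classes B-IC (-3.39) and Trans IC (-2.69), the distal convoluted tubule (-3.20) and the ascending loop of Henle (-2.45). The intercalated class A-IC was lower (-1.81) and did not pass (limma adjusted p 0.0623). The exact permutation p of principal cells alone was 0.0476, the smallest this design allows. The connecting tubule and the 4 classes called lower that are named here had the same exact p. The limma interval and p rest on 1 spread shared by all 28 classes, with 140 degrees of freedom from 7 samples as counted. Shares within a sample depend on each other, so that precision may be too high. Without UUO sample 1 the difference was -2.34 and no longer passed (limma adjusted p 0.0714), and without UUO sample 2 it was -4.70.

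**Figure D1:**
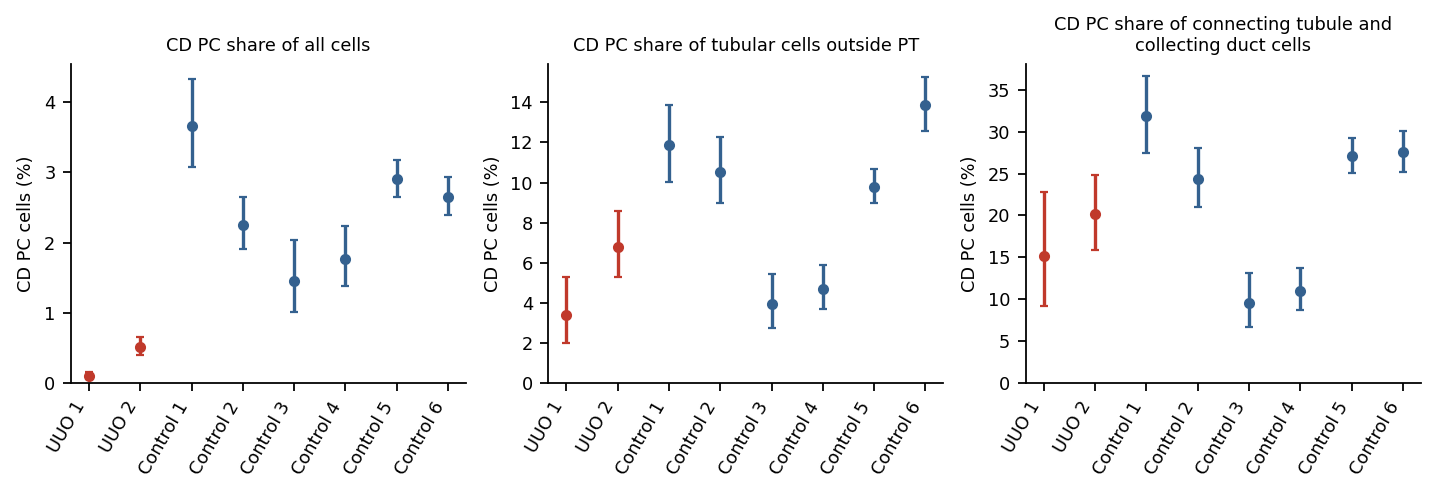
Percent of cells in the class CD PC in each of the 8 samples, among all cells, among tubular cells outside PT, and among the connecting tubule and collecting duct classes. Points are sample values with exact 95% binomial intervals: both UUO samples lie under all Control samples in the first panel only, and Controls 3 and 4 lie lowest among the Control samples in every panel.

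The design also allows principal cells to be set against other tubule cells, by a change of denominator. Proximal tubule (PT) cells reabsorb most of the filtrate and make up most cells of every UUO sample, so tubular cells outside PT were taken first. Among these, principal cells were 3.36% (18 of 535) and 6.80% (66 of 971) in UUO samples 1 and 2. In Control samples 1, 2, 5 and 6 they were 11.8%, 10.5%, 9.78% and 13.9%, and in Controls 3 and 4 they were 3.91% and 4.68%. The UUO samples lay below Controls 1, 2, 5 and 6 and overlapped with Controls 3 and 4. Means were 5.08% ± 2.43 (SD, n = 2) in UUO kidneys and 10.1% ± 3.54 (SD, n = 5) in Control kidneys. The log2 odds difference was -1.04 (95% interval -2.30 to 0.22, limma adjusted p 0.140 over 9 classes, exact p 0.143), and 22.2% of these classes were called lower and 11.1% higher. Without Controls 3 and 4 it was -1.33 and passed narrowly (limma adjusted p 0.0495), and without UUO sample 1 it was -0.52. The 9 classes of this denominator still included Prolif PT and Profibrotic Tubules. Their log2 odds differences were 2.12 (limma adjusted p 0.140) and 3.07 (limma adjusted p 0.0107), both higher in UUO. How far they lower the share of principal cells here was not tested.

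The narrowest denominator held the connecting tubule (CNT), which joins the distal tubule to the collecting duct, and the 4 collecting duct classes, CD PC and the acid-secreting A-IC, base-secreting B-IC and Trans IC intercalated classes. Principal cells were 15.1% (18 of 119) and 20.1% (66 of 328) of these in UUO samples 1 and 2. They were 31.9%, 24.4%, 9.48%, 11.0%, 27.1% and 27.6% in Control samples 1 to 6. The UUO values lay between Controls 3 and 4 on the low side and the other 4 Control samples on the high side. The log2 odds difference was -0.49 (95% interval -1.56 to 0.58, limma adjusted p 0.422 over 5 classes, exact p 0.524), with 0% of the 5 classes called lower and 20% called higher. Without Controls 3 and 4 it was -0.83 and passed (limma adjusted p 0.0346).

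Principal cells were then set against each neighbouring class directly, as a ratio of cell numbers. For every CNT cell there were 0.750 and 0.647 principal cells in UUO samples 1 and 2, inside the Control range of 0.284 to 0.879 (median 0.697, Controls 3 and 4 pooled). The sodium chloride-reabsorbing distal convoluted tubule (DCT) gave 0.184 and 0.235 principal cells per cell in UUO samples 1 and 2 and 0.144 to 0.425 in Control (median 0.333). For the ascending loop of Henle (ALOH), which dilutes the urine, they were 0.220 and 0.287 in UUO and 0.173 to 1.07 in Control (median 0.533). In all 3 ratios the UUO values lay within the Control range, but for DCT and ALOH only through the pooled Controls 3 and 4. Both UUO samples lay below Controls 1, 2, 5 and 6, which had 0.241 to 0.425 principal cells per DCT cell and 0.498 to 1.07 per ALOH cell.

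The ratios to the intercalated classes were not alike. There were 0.409 and 0.750 principal cells per A-IC cell in UUO samples 1 and 2. Control samples 1, 2, 5 and 6 had 3.88, 2.10, 3.19 and 1.68 per A-IC cell, and the pooled Controls 3 and 4 had 0.450. Principal cells outnumbered A-IC cells in those 4 Control samples and were outnumbered by them in both UUO samples and in Controls 3 and 4. Per B-IC cell there were 1.0 and 2.13 in UUO samples 1 and 2 and 0.696 to 2.24 in Control (median 1.78). Per Trans IC cell there were 1.20 and 1.61 in UUO and 0.720 to 5.50 in Control (median 2.63). For Trans IC the UUO values lay within the Control range only through the pooled Controls 3 and 4. Controls 1, 2, 5 and 6 had 5.50, 3.37, 2.63 and 2.43 per Trans IC cell. Against the 3 intercalated classes summed, a ratio added after seeing the data, there were 0.234 and 0.412 principal cells per intercalated cell in UUO samples 1 and 2. Control samples 1, 2, 5 and 6 had 1.13, 0.732, 0.796 and 0.674, and the pooled Controls 3 and 4 had 0.198.

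The UUO minus Control difference in the log2 ratio was 0.21 for CNT, -0.41 for DCT, -1.09 for ALOH, -1.69 for A-IC, -0.12 for B-IC and -0.81 for Trans IC. The exact permutation p lay between 0.143 for A-IC and 0.952 for B-IC, and none of the 6 passed after Benjamini-Hochberg adjustment (lowest adjusted p 0.643). Passing would have needed every ratio at the smallest p of 0.0476, so this does not show that the classes moved alike. For all intercalated cells the difference was -0.97 (exact p 0.286). Without Controls 3 and 4 the exact p cannot go under 0.0667, and A-IC (-2.19), ALOH (-1.51), Trans IC (-1.24) and all intercalated cells (-1.38) had that value unadjusted.

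**Figure D2:**
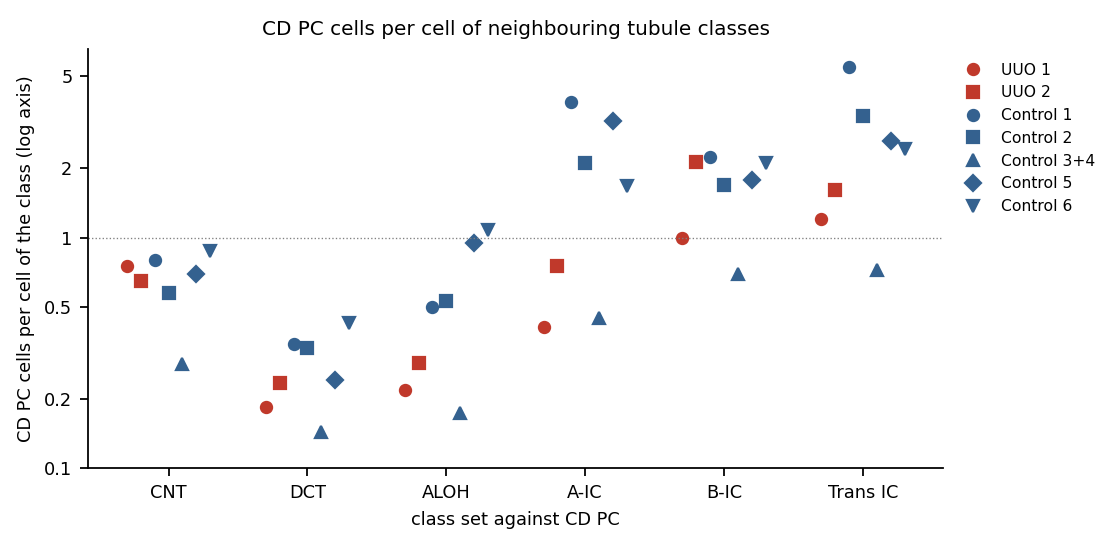
Principal cells per cell of 6 tubule classes on a log axis, 1 point per sample, with Controls 3 and 4 pooled. UUO points lie among the Control points for CNT and B-IC, and for A-IC both lie near the pooled Controls 3 and 4 and below the other Control samples. For DCT, ALOH and Trans IC both lie between the pooled Controls 3 and 4 and the other Control samples.

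RNA content per cell was the next comparison. UMIs count distinct transcript molecules and mix library depth with a cell's content. UUO sample 1 had a median of 1668.5 UMIs (quartiles 1073 and 4743) and UUO sample 2 of 4359.5 (1931 and 6097). Control samples 1 to 6 had medians of 1900.5, 2145, 2115, 2077, 2753 and 2100. The 2 UUO samples lay on either side of the Control range, the first below it and the second above. The log2 difference was 0.28 (95% interval -0.37 to 0.93, limma adjusted p 0.481 over the 26 classes with enough cells). Of these classes, 15.4% were called higher in UUO and 0% lower. The UUO 1 median rests on 18 cells, and without UUO sample 2 the difference had the other sign, -0.44.

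Set against the other tubular cells outside PT of the same library, whose medians ran from 1178 to 3632 UMIs, principal cells held 0.590-fold and 1.33-fold their UMIs in UUO samples 1 and 2. Control samples 1 to 6 had 1.41-, 1.44-, 1.80-, 1.70-, 0.758- and 1.10-fold. Principal cells were thus the richer cells in 5 of 6 Control samples and in UUO sample 2, and the poorer in Control 5 and UUO sample 1. The log2 difference between the groups was -0.49 (exact permutation p 0.286).

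Genes detected per principal cell had medians of 724.5 and 1482.5 in UUO samples 1 and 2. In Control samples 1 to 6 the medians were 1070.5, 1139, 1000, 983.5, 1118 and 828.5. The UUO samples again lay on either side of the Control samples. The log2 difference was 0.01 (95% interval -0.48 to 0.49, limma adjusted p 0.981), with 19.2% of the 26 classes called higher in UUO and 0% lower. Principal cells ran from 300 to 2982 genes, close to the limits of the whole table at 298 and 2998, so cells beyond those limits could not be seen.

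**Figure D3:**
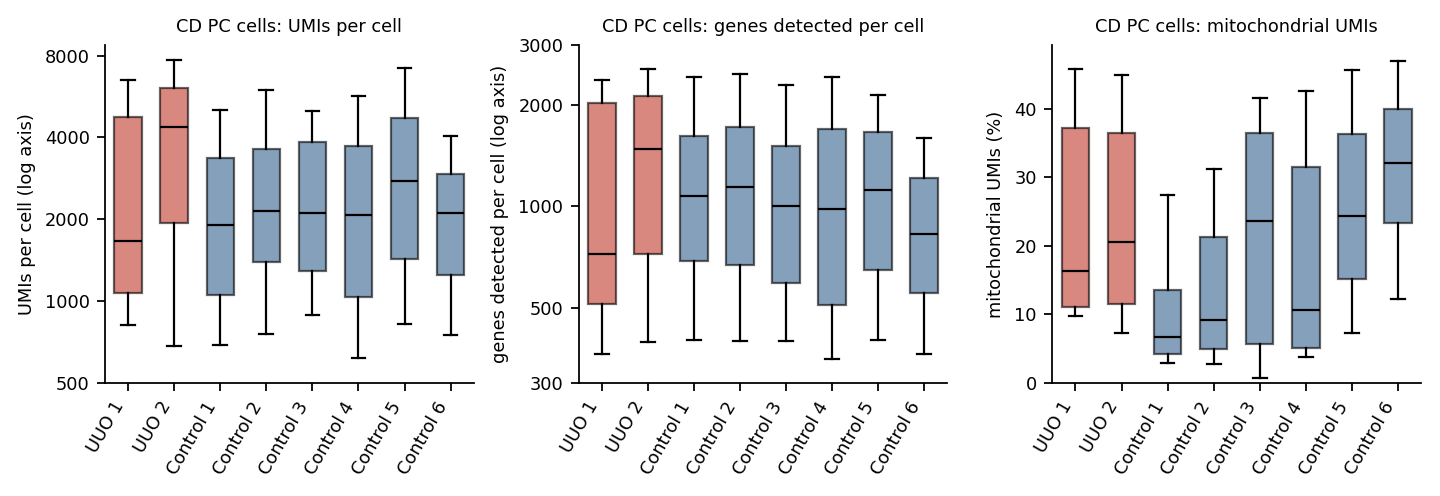
UMIs per cell and genes detected per cell (log axes) and percent of mitochondrial UMIs in the principal cells of each sample. Boxes show quartiles and medians, and whiskers the 5th and 95th percentiles: UUO samples 1 and 2 fall on either side of the Control medians in UMIs and genes, and the mitochondrial medians run from 6.67% in Control 1 to 32.2% in Control 6.

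Within samples, principal cells had fewer UMIs and genes than B-IC cells and fewer genes than A-IC cells. Compared with B-IC, principal cells held 0.485-fold the UMIs and 0.538-fold the genes, lower in 7 of 7 samples for each (mean log2 differences -1.04 ± 0.34 and -0.89 ± 0.26, SD). Compared with A-IC they had 0.713-fold the genes, lower in 7 of 7 samples (-0.49 ± 0.34), and 0.689-fold the UMIs, lower in 6 of 7 (-0.54 ± 0.39). The 3 comparisons lower in every sample had the smallest exact sign-flip permutation p, 0.0156, and passed after adjustment over 9 tests (0.0469). The A-IC UMI difference, of the other sign in UUO sample 2, did not pass (exact permutation p 0.0313, adjusted 0.0703). Against CNT the UMI difference was 0.28 ± 0.77 and higher in 5 of 7 samples (exact p 0.344), the exceptions being UUO sample 1 and Control 5. Trans IC cells were not part of these tests. Principal cells had the higher median UMIs of the pair in UUO sample 2 (4359.5, against 1413 in Trans IC) and in all 6 Control samples, and the lower in UUO sample 1 (1668.5, against 1946). In Control samples alone the same 3 differences were -1.15, -0.92 and -0.44, each with the smallest exact p of 5 samples, 0.0625.

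The share of mitochondrially encoded transcripts, commonly read as a mark of cell quality and of mitochondrial content, varied more between Control samples than between the groups. Principal cells had a median of 16.4% and 20.5% mitochondrial UMIs in UUO samples 1 and 2. The Control medians were 6.67%, 9.20%, 23.6%, 10.6%, 24.4% and 32.2% in samples 1 to 6. Both UUO values lay inside the Control range. The difference was 1.0 percentage point (95% interval -15.6 to 17.6, limma adjusted p 0.992), with 0% of the 26 classes called in either direction. Among the libraries over 10000 cells the UUO minus Control difference was -9.81 percentage points (limma adjusted p 0.182), both UUO samples lying below Controls 5 and 6.

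The order of principal cells among the 7 tubule classes outside PT, Prolif PT and Profibrotic Tubules changed with the sample. Their mitochondrial median was the lowest of the 7 in Controls 1 and 2 and next to lowest in Control 4. It was the highest in UUO sample 1 and in Controls 3 and 6, the next to highest in Control 5, and behind 2 other classes in UUO sample 2. Cells with at least 25% mitochondrial UMIs were 8 of 18 principal cells in UUO sample 1 (44.4%, interval 21.5 to 69.2) and 27 of 66 in UUO sample 2 (40.9%, 29.0 to 53.7). In Control samples 1 to 6 they were 6.82%, 15.9%, 48.5%, 32.9%, 48.4% and 70.4%. Close to the highest value in the table, at 40% or more, lay 3 and 14 principal cells in UUO samples 1 and 2 and 0, 2, 3, 5, 81 and 90 in Control samples 1 to 6. Cells past that limit could not be counted, and with only cells under 25% kept the difference in the share of all cells was -3.62 (limma adjusted p 0.000427).

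Inside the class, genes per cell varied with the mitochondrial share, and not in the same way in every sample. Principal cells under 10% had more genes at the median than those at 25% or more in 8 of 8 samples, and more UMIs in 6 of 8. In UUO sample 2 they had 2404 genes against 853 (13 and 27 cells), and in UUO sample 1 there were only 2 and 8 such cells, with 733 against 522. In Controls 1 to 4 the low-mitochondrial cells had 2.83 to 3.49 times the genes of the high ones. In Controls 5 and 6 this shrank to 1.28 and 1.02 times, with UMIs 0.918- and 0.619-fold. Cells between these bands, at 10% to 25%, had the most genes of all in UUO sample 1 (2236, 8 cells), Control 5 (1423, 194 cells) and Control 6 (1212, 98 cells). In UUO sample 2 and Controls 1 to 4 the cells under 10% had the most. These bands were chosen after seeing the data and are ranges, not cell types.

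Across the principal cells of each sample, mitochondrial percent and UMIs were negatively related in 8 of 8 samples, with Spearman's rho of -0.28 and -0.36 in UUO samples 1 and 2 and -0.57, -0.78, -0.32, -0.63, -0.11 and -0.21 in Control samples 1 to 6. Among the other tubule classes compared, the sign was negative in 7 of 8 samples for PT and A-IC, in 6 for ALOH, in 4 for CNT, in 3 for DCT and B-IC, and in 2 for Trans IC. With genes in place of UMIs, rho was negative in every sample for principal cells, PT (-0.55 to -0.05) and A-IC (-0.57 to -0.02). It took both signs over the samples in ALOH, CNT, DCT, B-IC and Trans IC. These values describe cells of shared libraries, over 18 to 469 principal cells per sample, and UMIs are also the denominator of the percent. The weakest relation was in Control 5.

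**Figure D4:**
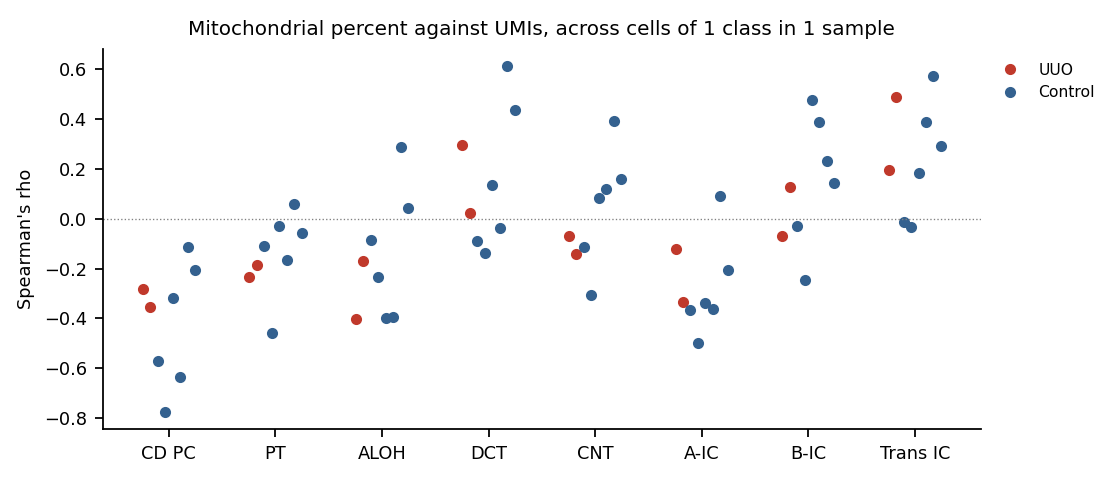
Spearman's rho between percent mitochondrial UMIs and UMIs across cells, for 8 tubule classes, with 1 point per sample. All CD PC points lie under 0, between -0.78 and -0.11. Each other class has points on both sides, with PT and A-IC negative in 7 of 8 samples.

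The authors' embedding, a map on which cells of like expression lie together, places all 1295 principal cells among its 25200 cells, which hold no PT cells. Its coordinates have no unit and come from the same expression as the classes, so nearness to other classes is a description. The median of CNT lay nearest to that of CD PC, at a distance of 3.54, followed by B-IC and Trans IC at 5.36 each, DCT at 6.22 and A-IC at 7.73. Of the 15 nearest cells to each principal cell, 96.0% were principal cells, 3.05% CNT, 0.479% B-IC and 0.283% DCT. For 41 principal cells, fewer than 50% of these neighbours were of their own class, and CNT was the commonest class around 33 of them and B-IC around 7. They were 3 of 84 principal cells in UUO (3.57%) and 38 of 1211 in Control (3.14%).

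The principal cells of the UUO kidneys lay in the same area as those of Control. Class and position come from the same expression, so this cannot show that the cells of the 2 groups were alike. The sample medians on the first coordinate were 6.42 and 6.81 in UUO samples 1 and 2 and 5.97 to 6.95 in the 6 Control samples. On the second coordinate they were 7.18 and 7.26 in UUO and 7.17 to 7.31 in Control. The distance between the group means was 0.0395 (exact permutation p 0.952), the 2 UUO medians of the first coordinate lying on either side of the Control mean. It was 0.219 without UUO sample 1 and 0.182 without UUO sample 2 (exact permutation p 0.5 for each). The mean share of neighbours of the same class was 90.4% and 98.1% in UUO samples 1 and 2 and 94.4% to 96.7% in Control with Controls 3 and 4 pooled, a difference of -1.62 percentage points (exact permutation p 0.524). UUO sample 1 was the lowest and UUO sample 2 the highest of all samples. Without UUO sample 1 the difference had the other sign, 2.23.

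Position on the first coordinate moved with the mitochondrial share in every sample. Spearman's rho across cells was -0.64 and -0.71 in UUO samples 1 and 2 and -0.75, -0.84, -0.82, -0.85, -0.63 and -0.59 in Control samples 1 to 6, over the same 18 to 469 cells. Principal cells under 10% mitochondrial UMIs had a median first coordinate of 7.66 and 7.62 in UUO samples 1 and 2, against 6.10 and 5.46 for those at 25% or more. In Control samples the low-mitochondrial cells had medians from 7.17 to 7.61 and the high ones from 5.05 to 6.37. High-mitochondrial principal cells thus lay on the side of the lower first coordinates. The CNT median is also found on that side, at 3.81, but at 4.99 on the second coordinate. On that second coordinate the high-mitochondrial cells had sample medians of 7.13 to 7.76, so they did not lie towards CNT on both. Genes per cell went the other way along the first coordinate in UUO sample 2 (rho 0.37) and Controls 1 to 4 (0.58 to 0.76). The relation was weak or absent in UUO sample 1 (0.02), Control 5 (0.07) and Control 6 (0.17). For UMIs, rho was -0.22, -0.15 and -0.04 in those samples, and 0.28 to 0.67 in the others.

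**Figure D5:**
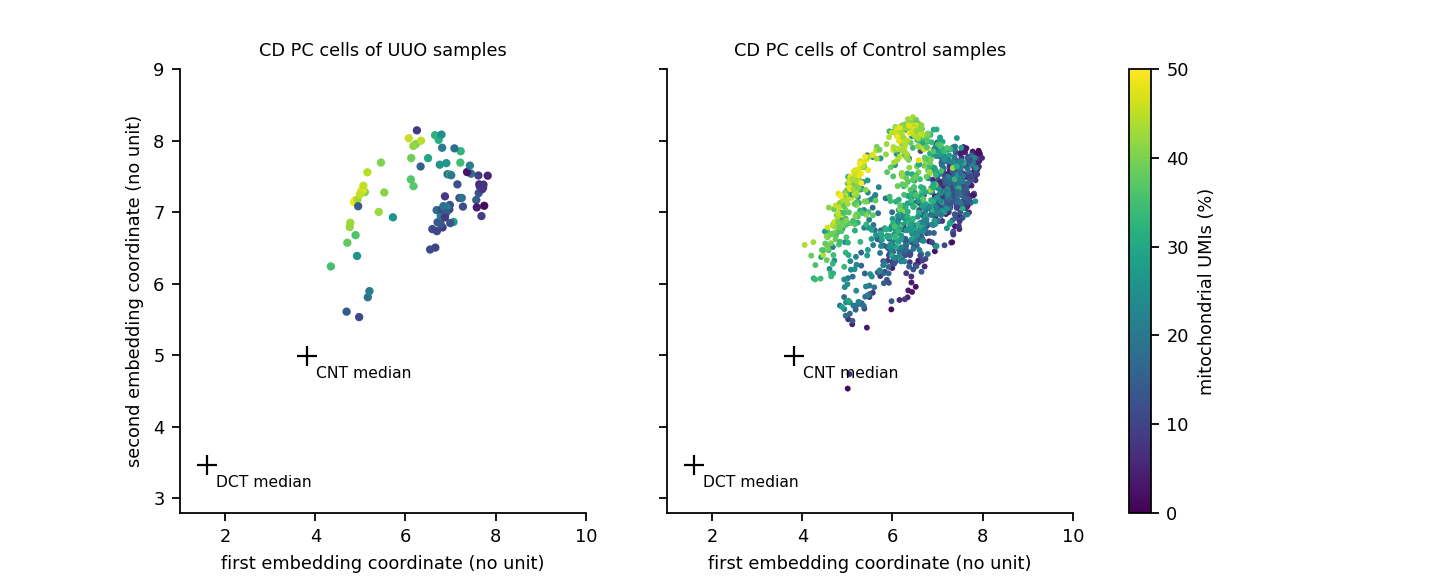
Principal cells on the authors' embedding, UUO at the left and Control at the right, coloured by percent mitochondrial UMIs, with crosses at the medians of CNT and DCT. High-mitochondrial cells lie at the left of the class and low-mitochondrial cells at the right in both groups, and 12 Control cells fall outside the plotted area.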

How the data were processed

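UMIs per cell are counts summed over genes and genes per cell are counts of detected genes, both made by the authors and not normalized, per the file headers. Mitochondrial UMIs are given by the authors as a percent of the UMIs in a cell, as deposited. Embedding coordinates are a score without unit, deposited by the authors and joined to cells by name. Cell Ranger 6.0.1, Seurat 4.0.1 and the build mm10 were used, per the submitters' processing notes. The sources used here do not give how cells were filtered, doublets treated or classes called, and no further doublet step was run.

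The class, the comparisons and the pooling of Controls 3 and 4 were chosen with earlier results of these data known. Only classes that the comparisons name were to be named. Other classes were to be added from 5% of embedding neighbours, and none reached that. Shares were fitted as log2 odds, log2((n + 0.5)/(N - n + 0.5)), of every class in the denominator with limma 3.58.1 in R 4.3.3, and per-cell measures as log2 sample medians (percent for the mitochondrial share) of the classes in which 2 or more samples of each group had at least 10 cells. Adjustment was by Benjamini-Hochberg, with a threshold of 0.05. Single values were compared by two-sided exact permutation over samples. Total UMIs per sample ran from 4375942 to 56755823, and those of principal cells from 50372 to 1515609, so the precision of each share is set by its number of cells. A sample without principal cells could still hold up to 0.133% in the smallest library. Alternatives used edgeR 4.0.16 on cell numbers, other scales, filters and sample sets. On simulated data with the shift set to -3, the fit of shares of all cells returned a mean of -3.06 and called 74.5% of 200 data sets. Every simulated class had the same spread in both groups, the median over classes of the spread of the Control samples. This checks the fit under that setting and not whether the setting holds for these data.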

Additional observations from a re-analysis of the deposited data

Results flagged for a closer look

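Among the 5 Control samples as counted, Control 5 stood far from the others in the median UMIs of principal cells, at 2753 UMIs, against 1900.5 to 2145 in the others. It was the only flag among 22 sets of Control values looked at, and chance flags about 1 in 20. Control 5 also had the highest median UMIs over all its cells, at 2944. With mitochondrial UMIs left out, its principal cells had a median of 2027 UMIs, close to 1976 in Control 2 and not flagged.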

How the results depend on the processing

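Both UUO samples lay below every Control sample in the share of all cells, so leaving samples out could not change the direction of that difference. The lower share of principal cells among all cells kept its direction in 20 of 20 alternatives. It kept its call in 19, the exception being the set without UUO replicate 1. Among the 19 was the exact permutation p of 0.0476, which, unlike the limma p, was not adjusted over classes. Leaving out each sample gave -4.70 to -2.34, edgeR gave -3.11 with sample totals and -3.65 with TMM scaling, and the libraries over 10000 cells gave -3.65. Without Controls 3 and 4, chosen after seeing the data, the shares of tubular cells outside PT (-1.33) and of connecting tubule and collecting duct cells (-0.83) passed as well. The range over left-out samples was -1.56 to -0.52 for the first and -0.73 to -0.26 for the second. The cause was not tested.

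Among results that did not pass, some changed sign. The ratio to B-IC was 0.10 with 8 separate samples and ran from -0.66 to 0.42 with samples left out, and that to CNT was -0.16 in the libraries over 10000 cells, -0.12 with cells of at least 1000 UMIs and -0.060 without Controls 3 and 4. With samples left out, UMIs ran from -0.44 to 0.996, genes from -0.52 to 0.53, the mitochondrial difference from -1.69 to 4.68 points, relative UMIs from -1.07 to 0.094, the embedding distance from 0.030 to 0.219 and same-class neighbours from -5.48 to 2.23 points. Genes were -0.0030 without Controls 3 and 4, and the mitochondrial difference was -9.81 in the libraries over 10000 cells.

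Within samples, the A-IC UMI difference passed with 8 separate samples (-0.51). In the libraries over 10000 cells, where 4 samples cannot pass, B-IC UMIs and genes were -1.01 and -0.95, A-IC genes -0.66, CNT UMIs, genes and mitochondrial percent -0.19, -0.063 and 3.12. In Control samples only, which cannot pass either, the first 3 were -1.15, -0.92 and -0.44.

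The replicate block, with sample numbers as a factor, kept the call on the share of all cells (-3.70, limma adjusted p 0.0169) and made no other. Under it genes were -0.10 and the mitochondrial difference 10.5 points (limma adjusted p 0.0562). Only numbers 1 and 2 occur in both groups, so these estimates set UUO samples 1 and 2 against Controls 1 and 2 alone. The other Control samples do not enter them. Controls 1 and 2 had the lowest mitochondrial medians of the Control samples, 6.67% and 9.20%. Same-numbered samples share only a number: their deviations over classes correlated at -0.33 for number 1 and 0.06 for number 2. A minimum of 20 cells could not be fitted for principal cells, since UUO sample 1 holds 18. The number of principal cells limits every UUO value, which rest on 84 cells, 18 in UUO sample 1 and 66 in UUO sample 2.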
